A study of Homo sapiens with 7 samples.

Results

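The 7 rows described here, MTND1P23, MTND2P28, MTCO1P12, MTCO2P12, MTATP6P1, MTCO3P12 and MTND4P12, are pseudogenes of the nuclear genome that copy genes of mitochondrial DNA. They were chosen by symbol from the 59251 rows of the deposited count table, with their levels in these libraries already known. Their difference between the groups is therefore a description here, with no test. All 7 rows together held 1.10% to 1.14% of the counts of each control library and 0.359% to 0.428% of the counts of each DJL1 library.

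The cells were H9, an established line of human embryonic stem cells, kept in RSeT, a medium for the naive pluripotent state, and transfected with guide RNA plasmids. The groups are called CTRL (4 libraries) and DJL1 (3 libraries). The series title is about LINE1 elements, a family of retrotransposons, at distal junctions of the ribosomal DNA repeats. Neither the protein that the guides direct nor the guide of the CTRL group is given in the sources used here. Both groups were in 10 nM DZNep, an inhibitor of methylation reactions that lowers histone methylation, and 5 nM TSA, an inhibitor of histone deacetylases. Both also had the CEPT cocktail, a mix that helps stem cells survive, for the first 16 hours, and were harvested at 48 hours. Poly(A) RNA was sequenced with a directional kit. The labels do not say whether replicates are separate cultures, so spreads and p-values measure the variation between these libraries, which may be technical.

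Human mitochondria carry a small circular genome with genes for 13 proteins, 2 ribosomal RNAs and 22 transfer RNAs. The proteins are subunits of the respiratory chain: the ND genes encode subunits of complex I, which takes electrons from NADH, the CO genes subunits of complex IV, cytochrome c oxidase, and the ATP genes subunits of complex V, ATP synthase. Transcription by the mitochondrial polymerase gives long RNAs that are cut at the transfer RNAs, and most of the messenger RNAs receive a short poly(A) tail, so that poly(A) selection retains them. Fragments of mitochondrial DNA have been inserted into the nuclear chromosomes during evolution, and a recent insertion can be close enough in sequence for a short read to match both places.

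In the deposited counts, the 37 rows of the mitochondrial genome held 0 counts over the 7 libraries. Whether mitochondrial DNA was part of the sequence the reads were aligned to, and how reads with several matches were handled, is not given in the sources used here. Reads of mitochondrial RNA and of nuclear copies can thus not be told apart in the values below, and a level of a copy is not taken as transcription of the nuclear locus.

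The sequences show how little separates a copy from its mitochondrial gene. The 4 pairs below are the 90 bases of each alignment with the most differences, from GENCODE release 29 transcripts on GRCh38, with differing bases in capitals. They cover the row with the most counts (MTCO1P12), the next (MTATP6P1), the lowest (MTCO2P12) and the row on another chromosome (MTND4P12). MTCO1P12 is read at chr1:631380-631469, plus strand, MTATP6P1 at chr1:633798-633887, plus strand, MTCO2P12 at chr1:632973-633062, plus strand, and MTND4P12 at chr5:134927869-134927958, minus strand.
MTCO1P12: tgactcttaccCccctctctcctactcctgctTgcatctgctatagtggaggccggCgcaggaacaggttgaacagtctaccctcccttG
MT-CO1: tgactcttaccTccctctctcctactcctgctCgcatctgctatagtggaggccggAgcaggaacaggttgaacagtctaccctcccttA
MTATP6P1: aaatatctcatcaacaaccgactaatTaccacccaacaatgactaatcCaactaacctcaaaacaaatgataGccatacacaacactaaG
MT-ATP6: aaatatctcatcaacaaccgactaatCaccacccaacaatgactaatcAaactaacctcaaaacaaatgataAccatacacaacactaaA
MTCO2P12: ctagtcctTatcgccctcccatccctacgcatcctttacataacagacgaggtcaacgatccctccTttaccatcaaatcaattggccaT
MT-CO2: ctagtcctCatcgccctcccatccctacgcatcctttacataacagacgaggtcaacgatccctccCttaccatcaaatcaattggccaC
MTND4P12: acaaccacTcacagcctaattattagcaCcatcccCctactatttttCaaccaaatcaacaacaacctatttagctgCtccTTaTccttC
MT-ND4: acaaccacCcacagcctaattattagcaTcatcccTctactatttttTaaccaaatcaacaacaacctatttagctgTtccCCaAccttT
Even where they differ most, MTCO1P12 and MTATP6P1 had 4 differences in 90 bases, MTCO2P12 had 3 and MTND4P12 had 9.

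Over the whole aligned length, identity with the mitochondrial gene was 99.1% for MTND1P23 (3 mismatches in 352 bases), 98.6% for MTCO1P12 (20 in 1543) and 98.5% for MTATP6P1 (10 in 681). It was 98.4% for MTND2P28 (17 in 1042), 98.2% for MTCO3P12 (10 in 547) and 98.0% for MTCO2P12 (12 in 684). Gaps lower the identity too, with 1 gap base in MTCO1P12 and 2 in MTCO2P12 beside these mismatches. MTND4P12 was the most distant, at 95.8% (58 in 1376). Of the 130 substitutions in all 7 alignments, 121 (93.1%) were transitions, changes of a purine to the other purine or of a pyrimidine to the other pyrimidine, and 9 were transversions. A read is placed by the bases it covers, so the stretches without any difference matter too. The longest such stretch was 266 bases in MTND2P28, 245 in MTCO1P12, 158 in MTND1P23, 141 in MTATP6P1, 124 in MTCO3P12, 108 in MTCO2P12 and 71 in MTND4P12. Windows of 50 bases in a copy were looked up in all genes of the mitochondrial genome. Those found there letter for letter made up 61.9% in MTND1P23, 49.4% in MTCO1P12, 29.1% in MTCO2P12 and 3.46% in MTND4P12.

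Of these rows, 6 lie side by side on chromosome 1, on the plus strand, between positions 629062 and 634922 of GRCh38, a block of 5861 bases. GENCODE calls them unprocessed pseudogenes of 1 exon each. Their order is that of the mitochondrial genome: MTND1P23 (629062 to 629433), MTND2P28 (629640 to 630683), MTCO1P12 (631074 to 632616), MTCO2P12 (632757 to 633438), MTATP6P1 (633696 to 634376) and MTCO3P12 (634376 to 634922). The ends of the block are cut: MTND1P23 matches bases 605 to 956 of MT-ND1, and MTCO3P12 matches bases 1 to 547 of the 784 of MT-CO3. The block lies inside AL669831.3, a gene annotated on the minus strand, whose exons overlap MTCO1P12 and MTCO2P12, and the microRNA gene MIR6723 overlaps 89 bases of MTCO1P12 on the minus strand. The strand setting of the counting is not given, so sense and antisense reads cannot be told apart here.

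MTND4P12, the remaining row, lies on chromosome 5, minus strand, at 134926660 to 134928036, and is annotated as a processed pseudogene. It sits in an intron of PCBD2, a plus-strand gene for a pterin dehydratase that is also a transcriptional cofactor. Copies of other mitochondrial genes lie around it in the same order as in the mitochondrial genome: MTND3P25 and MTND4LP30 on its 5′ side, and MTND5P11, MTND6P4 and MTCYBP18 on its 3′ side.

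All 7 rows passed the filter on low counts. Levels below are CPM, counts per 1000000 counts of a library whose total was corrected by its TMM factor. Library totals ran from 62277489 to 76691997 counts in CTRL and from 34634882 to 37795742 in DJL1, so the DJL1 libraries were shallower. Even the lowest value, MTCO2P12 in DJL1 replicate 2, rested on 2163 counts, so counting error is small beside the spread between libraries. The RNA is from bulk samples, in which fewer cells of a type and less RNA per cell cannot be told apart.

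Among the copies of complex IV genes, MTCO1P12, the copy of the gene for the catalytic subunit, was at 5373, 5497, 5383 and 5344 CPM in CTRL replicates 1 to 4 and at 2039, 1780 and 2143 CPM in DJL1 replicates 1 to 3. MTCO2P12, from the gene for the subunit that receives electrons from cytochrome c, was at 177, 180, 174 and 168 CPM in CTRL and 69.3, 61.7 and 72.3 CPM in DJL1. MTCO3P12, from the gene for the third core subunit, was at 414, 420, 400 and 395 CPM in CTRL and 139, 117 and 145 CPM in DJL1. In these 3 rows all CTRL libraries lay above all DJL1 libraries, and DJL1 replicate 2 was the lowest of the 7 libraries.

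MTATP6P1 copies the gene for subunit a of ATP synthase, which forms part of the proton channel. Its levels were 2362, 2427, 2344 and 2311 CPM in CTRL and 847, 731 and 878 CPM in DJL1. The groups did not overlap here either, and DJL1 replicate 2 was again lowest.

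The complex I rows copy genes for hydrophobic subunits of the membrane arm. MTND2P28 was at 1806, 1810, 1599 and 1711 CPM in CTRL and at 600.4, 499 and 648 CPM in DJL1. MTND1P23 was at 557, 569.9, 551 and 554 CPM in CTRL and at 202, 182 and 209.7 CPM in DJL1. MTND4P12, the row on chromosome 5, was at 569, 557, 545 and 545 CPM in CTRL and at 199, 173 and 221 CPM in DJL1. CTRL replicate 3 was the lowest CTRL library for MTND2P28, and no CTRL library of the 3 rows came near a DJL1 library.

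**Figure D1:**
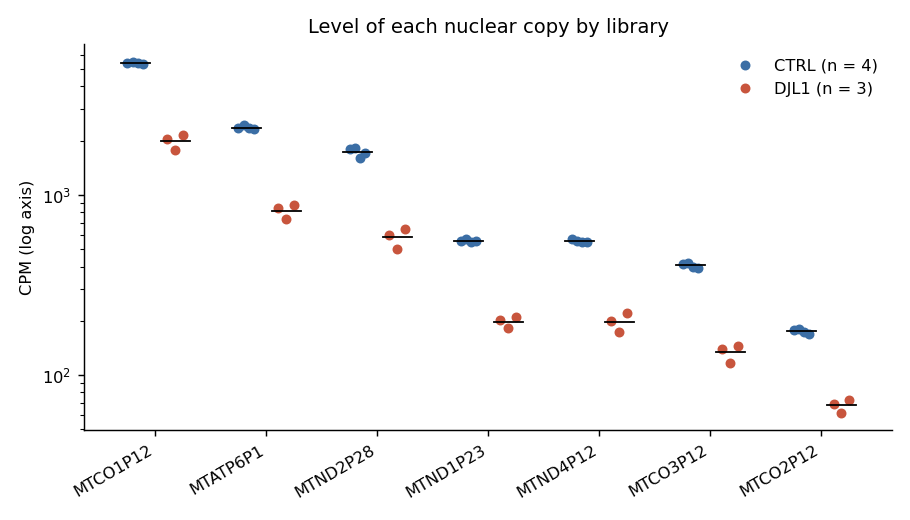
Level of each of the 7 rows in CPM (log axis) in the 4 CTRL and 3 DJL1 libraries; points are libraries and bars are group means. In each row all CTRL points lie above all DJL1 points, with the middle DJL1 point, replicate 2, lowest.

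Summed over the 7 rows, the level was 11187 ± 218 CPM in CTRL (SD, n = 4) and 3985 ± 398 CPM in DJL1 (SD, n = 3). The DJL1 mean was thus 35.6% of the CTRL mean, a log2 fold change (DJL1 minus CTRL, as throughout) of -1.49 ± 0.07 (SE), or 2.81-fold lower. As a share of unscaled library counts, which needs no scaling factor, the sum was 1.11% ± 0.0192 in CTRL and 0.401% ± 0.0369 in DJL1 (SD). The groups did not overlap in 7 of 7 rows. Non-overlapping groups were common in this experiment. The groups did not overlap in 53.6% of the 26062 tested rows, and in 26.2% they did not overlap with DJL1 lower. In edgeR's quasi-likelihood test over all rows, 52.0% of tested rows had a Benjamini-Hochberg adjusted p under 0.05.

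The log2 fold changes of the 7 rows lay close together. They were -1.61 ± 0.06 (SE) for MTCO3P12, -1.57 ± 0.08 for MTND2P28, -1.53 ± 0.05 for MTATP6P1, -1.50 ± 0.05 for MTND1P23, -1.49 ± 0.06 for MTND4P12, -1.44 ± 0.05 for MTCO1P12 and -1.37 ± 0.05 for MTCO2P12. From the first to the last they differ by 0.24. MTND4P12, although on another chromosome and the least alike in sequence to its mitochondrial gene, was within the range of the block on chromosome 1. The authors' deposited table gives log2 fold changes of -1.60 for MTCO3P12 to -1.35 for MTCO2P12, in the same order.

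Over the whole table, a log2 fold change of -1 or below was found in 3.29% of tested rows, and 1.41% lay at or below that of MTCO2P12, the smallest of the 7. Of the 2160 tested rows with a mean of at least 100 CPM, 10 had a log2 fold change of -1 or below, and 7 lay at or below the value of MTCO2P12. These were the 7 copies themselves, with 0 other rows. The median log2 fold change was 0.01 over all tested rows and -0.12 over the rows of at least 100 CPM. Since the rows were chosen with this contrast in view, these counts only place them in it.

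The make-up of the summed counts does not depend on scaling between libraries. MTCO1P12 made up 48.3% ± 0.545 of the 7 rows' counts in CTRL and 49.9% ± 0.319 in DJL1 (SD). MTATP6P1 made up 21.1% ± 0.173 and 20.6% ± 0.181, and MTND2P28 15.5% ± 0.656 and 14.6% ± 0.476. For the first pair of rows the libraries of the groups did not overlap, and for MTND2P28 they did. MTND1P23 held 4.99% ± 0.0350 and 4.98% ± 0.139, and MTND4P12 4.96% ± 0.0801 and 4.95% ± 0.141, with overlapping libraries. Relative to its CTRL mean, the share differed most in the rows with the smallest and the largest fold changes. MTCO2P12 went from 1.56% ± 0.0252 to 1.70% ± 0.0346, and MTCO3P12 from 3.64% ± 0.0428 to 3.35% ± 0.0436, both without overlap. These shifts are a small part of the difference in the sum.

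**Figure D2:**
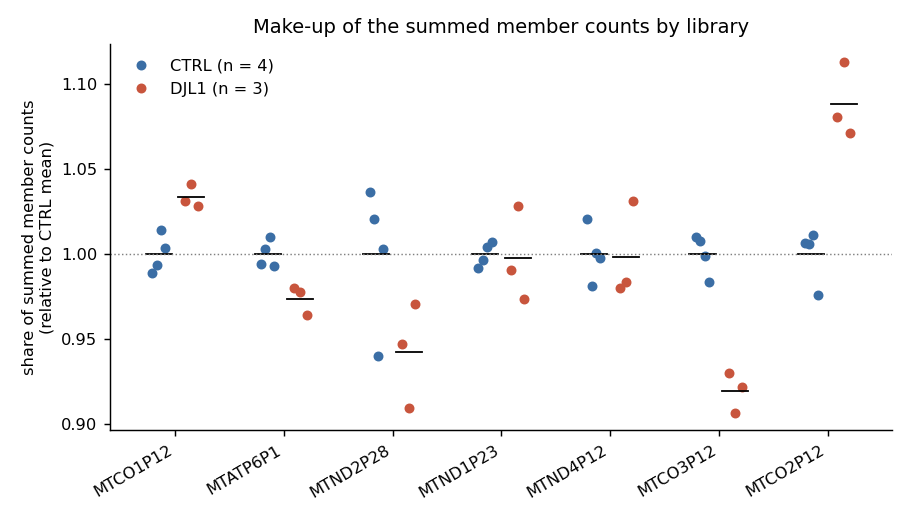
Share of each row in the summed counts of the 7 rows, divided by its CTRL mean, for the 4 CTRL and 3 DJL1 libraries; points are libraries and bars are group means, and the vertical axis does not start at 0. The DJL1 points of MTCO2P12 lie above 1 and those of MTCO3P12 below 1, apart from the CTRL points.

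Levels of different rows can be compared only per length. Per kilobase of the RefSeq row, the CTRL means were 3499 ± 43.6 CPM per kb for MTCO1P12 and 3467 ± 71.7 for MTATP6P1 (SD, n = 4), whose libraries overlapped. MTND2P28 followed at 1654 ± 94.99, MTND1P23 at 1472 ± 22.04, MTCO3P12 at 744 ± 21.7, MTND4P12 at 403 ± 8.40 and MTCO2P12 at 257 ± 7.53 CPM per kb. From MTND2P28 to MTCO2P12, neighbours in this order did not overlap in CTRL. The first row was 13.6 times the last. In DJL1 the means ran in the same order, from 1288 ± 121 to 99.4 ± 8.01 CPM per kb (SD, n = 3), and MTND2P28 (556 ± 72.9) and MTND1P23 (522 ± 38.2) overlapped, as did MTCO1P12 and MTATP6P1. Per length, the share of MTCO1P12 in the summed CTRL level was 30.4% in place of 48.3%. The order does not follow identity, since MTCO2P12 (98.0%) was below MTND4P12 (95.8%).

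The table holds 475 further rows named as copies of mitochondrial genes, and 325 of these had no count in any library. The other 150 held 4960 counts together over the 7 libraries, against 3426305 in the 7 rows described here, which is 99.9% of the counts of all 482 copies. The highest of the rest was MTRNR2L12, a humanin-like copy of the large ribosomal RNA gene, with a mean of 3.57 CPM over the 7 libraries, 36.2 times below the 129 CPM of MTCO2P12. For each of 7 mitochondrial genes (CO1, CO2, CO3, ATP6, ND1, ND2 and ND4), the row described here was the copy with the highest identity and held at least 99.8% of the counts of all copies of that gene.

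Sequences were found for 395 of these other copies. Of the 330 with 300 bases or more, the median identity with the mitochondrial gene was 74.4%, with a range of 64.3% to 96.0%, and 3 reached 95%. Those 3 were MTCO1P40 (96.0%, 0.690 CPM on average), MTRNR2L12 (95.1%, 3.57 CPM) and MTND6P4 (95.02%, 0.0988 CPM). MTCO1P40 was thus closer to its mitochondrial gene than MTND4P12, whose mean was 401 CPM. The copy of MT-CO1 with the highest identity was MTCO1P12, at 98.6%. What sets the level of MTCO1P40 was not tested. A stretch of at least 100 bases without any difference was found in 6 of the 7 rows, all but MTND4P12, and in 0 of the other 330 copies, where the longest was 99 bases.

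**Figure D3:**
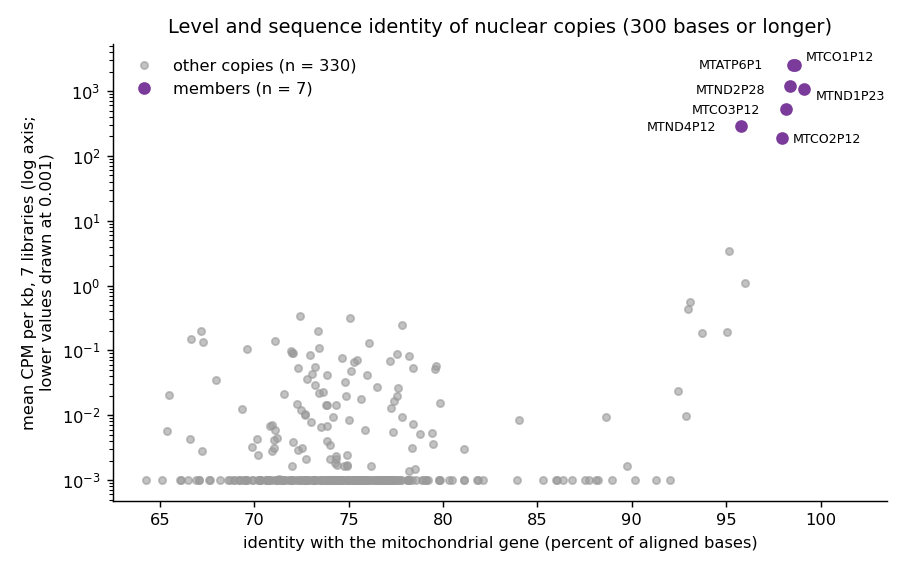
Mean CPM per kb over 7 libraries (log axis) against identity with the mitochondrial gene in percent, for the 7 rows (purple) and the 330 other copies of 300 bases or more (grey); levels under 0.001 are drawn at 0.001. The 7 rows stand above all other copies, and MTND4P12 is the leftmost of them at 95.8%.

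High identity did not come with a high level for every mitochondrial gene. MTATP8P1 lies in the block on chromosome 1 between MTCO2P12 and MTATP6P1, at 633535 to 633741, and copies the gene for a small subunit of ATP synthase with 97.6% identity. It held 0.979, 1.01, 0.933 and 0.530 CPM in CTRL and 0.287, 0.542 and 0.674 CPM in DJL1, far below each neighbour. Its 207 bases share 46 with MTATP6P1, an overlap that MT-ATP8 and MT-ATP6 have too. Its log2 fold change of -0.79 ± 0.35 (SE) did not pass edgeR's test (adjusted p = 0.072), and did pass without CTRL replicate 4, without DJL1 replicate 3 and with the replicate number as a block (adjusted p = 0.034 to 0.046).

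The cluster on chromosome 5 had the same contrast between neighbours. Beside MTND4P12 at 554 CPM in CTRL, the CTRL means were 1.02 CPM for MTND5P11, 0.139 for MTND6P4, 0.0307 for MTCYBP18, 0.0219 for MTND4LP30 and 0.0113 for MTND3P25. MTND5P11 has 93.0% identity with MT-ND5, and MTND4LP30 has 94.9% with MT-ND4L. What sets the level of MTND4P12 apart from these was not tested.

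After the filter, 14 of the 475 other copies could be tested. Against a background of 27.0% of tested rows called higher and 25.1% called lower, 1 of the 14 rose and 5 fell, and their median log2 fold change was -0.67. The filter needs enough counts only in as many libraries as the smaller group holds. A row near its cut, such as MTCYBP26 or MTRNR2L2, can thus be kept by the group where it is higher. The counts that rose and fell are therefore only a description. The count that fell was 3 without CTRL replicate 1, CTRL replicate 3 or DJL1 replicate 2, and the count that rose was 2 without DJL1 replicate 2 or 3. MTRNR2L12 was at 3.90, 5.44, 5.95 and 4.79 CPM in CTRL and 1.72, 1.97 and 1.21 CPM in DJL1, without overlap, and fell by 1.62 ± 0.19 (SE) on the log2 scale (adjusted p = 3.7e-06, edgeR). MTCO1P40 was at 0.850, 0.868, 1.08 and 0.984 CPM in CTRL and 0.365, 0.228 and 0.459 CPM in DJL1, and fell by 1.42 ± 0.32 (adjusted p = 0.0014, edgeR). MTRNR2L9 fell by 0.75 ± 0.22 (adjusted p = 0.0085, edgeR). MTRNR2L9, as MTRNR2L12, holds a humanin-like reading frame.

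The calls of MTND5P11 (-1.07 ± 0.37, adjusted p = 0.025, edgeR) and MTRNR2L2 (-1.22 ± 0.49, adjusted p = 0.049) were lost under some alternatives. For MTND5P11 these were leaving out CTRL replicate 1 or 3 and DJL1 replicate 2 or 3, with adjusted p of 0.052 to 0.075, and for MTRNR2L2 leaving out any CTRL library or DJL1 replicate 2 or 3. The call of MTRNR2L2 was also lost with the replicate number as a block, with no filter, under library size alone and in limma-voom (adjusted p = 0.0503 to 0.136 over these and the left-out libraries). MTCYBP26, a cytochrome b copy, was the row that rose, from 0.179 ± 0.0879 CPM in CTRL (SD, n = 4) to 0.617 ± 0.0591 in DJL1 (SD, n = 3). It rested on only 18, 16, 6 and 8 counts in CTRL and 22, 24 and 22 in DJL1. The stricter filter on low counts leaves it out, and 0 of the other copies rose there. MTRNR2L8 (-0.44 ± 0.32, but -0.92 and adjusted p = 0.025 without DJL1 replicate 3), MTND5P45 (0.03 ± 0.47) and MTND4P41 (0.61 ± 0.53) did not pass the test.

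Rows near the 7 copies share their chromosomal place, and most are not copies of mitochondrial genes. By RefSeq position, 19 rows lay within 100 kb of the block on chromosome 1, 5 of them tested, MTATP8P1 among these. Some of the 19 are uncertain neighbours. LOC102724250 spans the block by RefSeq position, had no count in any library and is not among the GENCODE genes that overlap the block. Of the 5, 0 rose (0 also with an unadjusted p under 0.05 in edgeR) and 2 fell. Over all tested rows, 27.0% were called higher and 25.1% lower. LOC100288069, an uncharacterised locus, fell from 169 ± 2.34 CPM in CTRL (SD, n = 4) to 100.1 ± 9.57 in DJL1 (SD, n = 3), by 0.75 ± 0.05 (SE) on the log2 scale (adjusted p = 1.9e-08, edgeR). SEPTIN14P14 fell by 0.39 ± 0.14 (adjusted p = 0.031, edgeR), a call lost without any 1 of CTRL replicates 1, 2 and 3 or DJL1 replicate 1. CICP3 was at 4.12 ± 0.258 and 4.31 ± 1.16 CPM in CTRL and DJL1, and did not pass.

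Within 100 kb of MTND4P12 there were 12 rows, 5 of them the copies of mitochondrial genes given above. Of the 7 tested, MTND5P11 among them, 1 rose and 3 fell, beside 27.0% and 25.1% of all tested rows. PCBD2, whose intron holds MTND4P12, was at 17.3, 17.2, 16.4 and 16.3 CPM in CTRL and 10.2, 9.47 and 10.5 CPM in DJL1, and fell by 0.74 ± 0.07 (SE) on the log2 scale (adjusted p = 6.3e-07, edgeR). DDX46, a splicing helicase, fell by 0.41 ± 0.05 (adjusted p = 1.3e-05, edgeR), and MTND5P11 is the third. PITX1, a homeobox transcription factor, rose from 0.901 ± 0.116 to 3.02 ± 0.596 CPM (adjusted p = 3.3e-06, edgeR). TXNDC15 (-0.08 ± 0.06), C5orf24 (-0.01 ± 0.09) and CATSPER3 (0.36 ± 0.23) did not pass. In these neighbourhoods no tested row had a log2 fold change as low as that of MTCO2P12.

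The nuclear genome also encodes the proteins that copy, process and translate mitochondrial DNA and RNA. Of 38 genes for mitochondrial transcription, RNA processing and DNA maintenance, all tested, 1 rose, 27 fell and 10 did not pass. Beside this, 27.0% of all tested rows were called higher and 25.1% lower. The median log2 fold change of the 38 genes was -0.24. It was 0.01 over all tested rows and -0.12 over those with a mean of at least 100 CPM. SLIRP, which stabilises mitochondrial messenger RNAs together with LRPPRC, was at 72.5, 74.5, 65.1 and 67.8 CPM in CTRL and 42.9, 45.4 and 45.8 CPM in DJL1, and fell by 0.65 ± 0.05 (SE) on the log2 scale (adjusted p = 9.2e-08, edgeR). LRPPRC itself fell by 0.25 ± 0.05 (adjusted p = 3.1e-04, edgeR). SSBP1, the single-stranded DNA binding protein of mitochondria, fell by 0.50 ± 0.05, and POLG, the mitochondrial DNA polymerase, by 0.47 ± 0.04. FASTK, a member of a family of mitochondrial RNA binding proteins, fell by 0.55 ± 0.05.

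The list also holds the transcription machinery. TFAM, which packages mitochondrial DNA and starts its transcription, was at 116 ± 1.21 CPM in CTRL (SD, n = 4) and 97.1 ± 3.01 in DJL1 (SD, n = 3), and fell by 0.26 ± 0.04 (SE) on the log2 scale (adjusted p = 3.6e-05, edgeR). POLRMT, the mitochondrial RNA polymerase, fell by 0.21 ± 0.04 (adjusted p = 2.8e-04, edgeR). MTPAP, which adds the poly(A) tails, was at 37.5 ± 0.711 and 36.7 ± 2.24 CPM and did not pass (-0.03 ± 0.05, adjusted p = 0.68, edgeR). The 1 gene that rose, named after its value was seen, was TFB1M, a ribosomal RNA methyltransferase (0.24 ± 0.08, adjusted p = 0.016, edgeR), and it was no longer called without CTRL replicate 2 or without CTRL replicate 4, while 2 genes rose without DJL1 replicate 2.

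Complexes I, IV and V are built from mitochondrially and nuclear-encoded subunits. Of 65 nuclear-encoded subunits of these complexes, all tested, 0 rose (0 also with an unadjusted p under 0.05 in edgeR, and 0 in DESeq2 and limma-voom). In the same list 62 fell and 3 did not pass, with a median log2 fold change of -0.47. Of all tested rows, 27.0% were called higher and 25.1% lower. The median was 0.01 over all tested rows and -0.12 over those with a mean of at least 100 CPM. COX7A2, a subunit of complex IV, was at 102.5, 100.1, 95.9 and 97.1 CPM in CTRL and 57.6, 62.0 and 59.4 CPM in DJL1, and fell by 0.73 ± 0.04 (SE) on the log2 scale (adjusted p = 3.7e-09, edgeR). ATP5PO, in the stalk of ATP synthase, also fell by 0.73 ± 0.04 (adjusted p = 4.2e-09, edgeR). ATP5MK, a small subunit of the same enzyme, fell by 0.79 ± 0.05, and NDUFV2, in the NADH-oxidising part of complex I, by 0.67 ± 0.05. The 3 that did not pass, named after their values were seen, were NDUFB8, NDUFB11 and NDUFC2. Over the 65 subunits the log2 fold changes ran from -1.35, for ATP5F1E at 1.45 CPM in CTRL, to 0.02. None was as low as -1.37, the smallest among the 7 copies, but ATP5F1E lay within the SE of that value (0.05).

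**Figure D4:**
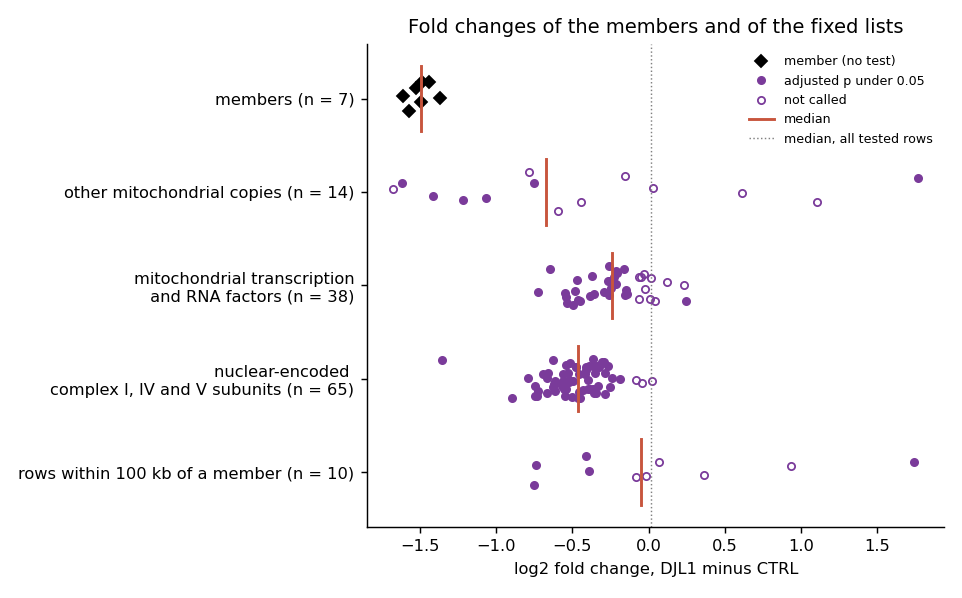
Log2 fold changes (DJL1 minus CTRL) of the 7 rows, here called members, of 14 other copies, of 38 mitochondrial factors, of 65 respiratory subunits and of 10 tested rows of other genes within 100 kb; filled circles passed edgeR's test, open ones did not, and black diamonds were not tested. Red bars are medians, and the dotted line is the median of all tested rows, 0.01; the 7 diamonds lie between -1.61 and -1.37.

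Over the 7 libraries, many rows ran in parallel with the summed copies. Of 13058 rows with a mean of at least 5 CPM that are on none of the lists, 462 had a Pearson r above 0.99 with the sum in log2 CPM. This is a description over 7 libraries in which depth differs along with group. A row that differs cleanly between the groups in the same direction gets a high r here. Among the 5 closest were ENGASE (r = 0.999), a glycosidase, TEX261, the RNA LOC124901266 and DESI1. Over the 4 CTRL libraries alone, r was 0.70 for ENGASE, 0.85 for TEX261, 0.88 for LOC124901266 and 0.86 for DESI1. Their log2 fold changes were -0.38 ± 0.04 (SE) for ENGASE, -0.39 ± 0.05 for TEX261, -1.08 ± 0.05 for LOC124901266 and -0.67 ± 0.05 for DESI1, all smaller in size than that of any of the 7 copies.

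The cells carried markers of pluripotency in both groups. POU5F1 was at 5324 ± 73.1 CPM in CTRL (SD, n = 4) and 5354 ± 269 in DJL1 (SD, n = 3) and did not pass the test. NANOG (-0.50 ± 0.05) and SOX2 (-0.39 ± 0.04) fell. Of the markers of the naive state, DPPA5 (-0.49 ± 0.05) fell, and KLF17 (1.92 ± 0.23) and DNMT3L (0.93 ± 0.07) rose. Of 8 markers of fibroblasts, 6 were tested, 5 of them rose (COL1A1, COL1A2, COL3A1, THY1 and VIM) and 0 fell, POSTN being the 1 tested that did not pass (0 fell also with an unadjusted p under 0.05 in edgeR). Their summed level was 730.3 to 751 CPM in CTRL and 1044 to 1150.1 CPM in DJL1, while DCN and LUM were at or near 0 in all libraries, with at most 6 counts. The part of these shifts in the level of the copies was not tested.

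Because poly(A) selection decides which RNA is read, 23 RNAs that normally lack a poly(A) tail were listed. Of the 18 tested, 6 rose and 2 fell, beside 27.0% and 25.1% of all tested rows, with a median log2 fold change of 0.51. RNU6-1, a U6 spliceosomal RNA, was at 0.557 ± 0.197 CPM in CTRL (SD, n = 4) and 14.9 ± 6.04 in DJL1 (SD, n = 3), and rose by 4.76 ± 0.30 (SE) on the log2 scale (adjusted p = 1.6e-07, edgeR). The histone gene H2AC6 rose by 0.70 ± 0.12 (adjusted p = 1.1e-04, edgeR), and H1-2 (0.32 ± 0.14) did not pass. H1-2 did pass with no filter, without CTRL replicate 1 and without DJL1 replicate 3 (edgeR, adjusted p = 0.0076 to 0.042). RN7SL1, the RNA of the signal recognition particle, was at 18.99 ± 0.822 and 22.8 ± 5.04 CPM, and its call (adjusted p = 0.0497, edgeR) was lost under 10 of the alternatives, among them each CTRL library and DJL1 replicates 1 and 2 left out in turn. Whether the selection of poly(A) RNA differed between the groups, and its part in the level of the copies, was not tested.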

How the data were processed

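The authors deposited a count table (raw counts, rows named by gene symbol, 1 column per library per the file headers), which was used as it is. Of the authors' deposited comparison table, only the log2 fold changes of the 7 copies are quoted, and its model and filter are unknown. A deposited table of log values of unknown transform was not used. The submitters' processing notes list, without role or order, Subread 1.5.0 and featureCounts, HISAT2 2.2.1, Trim Galore 0.4.0 and the builds hg38 and GRCh38. The labels speak of sorting and the design text of direct processing, so it is unclear whether cells were sorted. No batch is labelled.

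Groups were read from sample titles. RefSeq symbols (GRCh38.p14) matched 57842 of the 59251 rows. The filter filterByExpr (at least 10 counts, 15 in total) kept 26062 rows, with 99.9% of all counts. The test of DJL1 against CTRL was the quasi-likelihood test of edgeR (TMM, robust, 2-sided), adjusted by Benjamini and Hochberg over all tested rows at 0.05 and checked first on simulated counts. Log2 CPM used a prior count of 2. Each copy was aligned to its mitochondrial gene locally (match 2, mismatch -3, gap open -6, gap extension -2). The 7 copies and all lists were chosen with earlier results of these data known. Named genes were the 7 copies, MTATP8P1, the 10 tested other copies with the highest mean CPM, and the 4 with the smallest adjusted p of each mitochondrial list with TFAM, POLRMT, LRPPRC, SLIRP and MTPAP. They also took in the 4 highest RNAs without poly(A) tail, tested rows of at least 1 CPM within 100 kb, the 5 most alike rows, 1 of which is not reported here, and cell type markers. Alternatives were DESeq2, limma-voom, 3 other scalings, 2 other filters, each library left out in turn, the replicate number as a block, values per length and shares within the 7 copies. Software was Python 3.11.15, Biopython 1.88, R 4.3.3, DESeq2 1.42.0, edgeR 4.0.16 and limma 3.58.1, with GENCODE release 29.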

Additional observations from a re-analysis of the deposited data

Results flagged for a closer look

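In 62 sets of 4 CTRL values checked by Dixon's criterion, 3 had 1 library far from the rest, and chance alone flags about 1 in 20. In each it was CTRL replicate 4. The share of MTCO2P12 in the counts of the 7 copies was 1.53% there, against 1.57% to 1.58% in the other CTRL libraries and at least 1.68% in DJL1. MTATP8P1 was at 0.530 CPM, against 0.933 to 1.01 CPM in the other CTRL libraries. DDX46, the splicing helicase gene near MTND4P12, was at 145 CPM, against 149.7 to 149.8 CPM. The summed level of the 7 copies in CTRL replicate 4, 11029 CPM, lay within the range of the others.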

How the results depend on the processing

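The summed log2 fold change of the 7 copies stayed between -1.56 (without DJL1 replicate 3) and -1.42 (without DJL1 replicate 2) over 15 alternatives, and each of the 7 kept its direction. Of the other copies, 5 in place of 1 rose with no filter on low counts and 0 with the stricter filter, which left 2 in place of 5 that fell; leaving out single libraries gave 1 to 2 that rose and 3 to 6 that fell. Of the mitochondrial factors, 2 in place of 1 rose under library size alone and under the stricter filter, and leaving out single libraries gave 0 to 2. With the replicate number as a block, 0 of them rose, and the summed log2 fold change was -1.50. To look for pairing, the group mean of each row was subtracted and the remaining deviations were compared between CTRL and DJL1 libraries. Correlations of these deviations were -0.0089, -0.039 and -0.025 for same-numbered libraries. For differently numbered libraries they ran from -0.020 to 0.036. Whether libraries of the same number belong together is not given in the labels. Rows that did not pass the test changed sign in places: MTND5P45 was at -0.0051 with no filter, -0.044 with the block and -0.074 in limma-voom, with -0.43 to 0.35 on leaving out single libraries. MTPAP was at 0.0014 with the stricter filter, and CICP3 at -0.16 to 0.23 on leaving out single libraries. C5orf24 was at 0.0031 under library size alone, 0.016 with the stricter filter and -0.16 to 0.096 on leaving out single libraries. POU5F1 was at -0.0013 under relative log expression factors and in DESeq2, -0.023 with no filter and -0.042 to 0.026 on leaving out single libraries. The call of THY1 was lost with no filter (adjusted p = 0.060, edgeR). The filters change which rows are tested; otherwise the cause was not tested. Depth limits the other copies, most of which were near 0 counts.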
